A study of Mus musculus with 17 samples.

Results

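Loss of Yap and Taz was examined in hepatocytes from livers that had received no injury. The comparison set 4 Yap/Taz knockout samples against 5 wild type samples, 9 of the 17 samples of the series, chosen by their labels as untreated. All 9 held hepatocytes sorted by FACS, a method that picks cells by fluorescence, from male mice aged 2 to 3 months. The knockout concerned both Yap (gene Yap1) and Taz (gene Wwtr1), and no sample of either group had received carbon tetrachloride (CCl4), a solvent toxic to the liver. The sources used here give neither the Cre driver nor the design of the alleles, the strain of each genotype or the sorting markers. The labels say that replicate numbers pair nothing and do not say that each sample came from its own animal, so p-values measure only the spread between these samples, which may be technical. The other samples, 5 wild type and 3 knockout, came from mice dosed 7 times with CCl4 at 1 ug/g, 3 days apart, and sorted 3 days after dosing ended. They entered the fit to share its estimate of the spread and gave separate libraries in which to read the genes of the untreated comparison.

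YAP and TAZ are transcriptional co-activators that the kinases of the Hippo pathway phosphorylate and keep out of the nucleus. In the nucleus they bind TEAD factors and raise genes of growth, survival and the cytoskeleton, Ccn1 and Ccn2 among the best known. In the adult liver they are known for their control of organ size and regeneration, and for higher activity in bile duct cells than in resting hepatocytes.

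Levels are CPM, the counts of a gene relative to the size of its library, with library sizes scaled by TMM, a method that takes most genes as equal between samples. CPM are not divided by gene length, so they were compared between samples and not between genes. A gene was called at a Benjamini-Hochberg adjusted p under 0.05 from edgeR's quasi-likelihood test over the 13721 genes with enough counts. Every adjusted p below comes from that test unless another tool is named, and every log2 fold change is knockout against wild type with its standard error. Copies of a gene are told apart from unique genes because the sources used here do not say how reads that match several places were counted, so the split of counts between near-identical genes is uncertain.

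The 9 libraries held 11266420 to 20402360 counts each. Mitochondrially encoded genes took 5.32 to 30.7% of counts in wild type and 5.69 to 8.87% in knockout samples, with wild type replicate 5 the highest. Summed hepatocyte markers were 88498 ± 23238 CPM of unscaled totals (SD, n = 5) in wild type and 95533 ± 10290 CPM (SD, n = 4) in knockout samples. Of 7 summed marker lists of other cells, also in CPM of unscaled totals, that of red cells and platelets had the smallest p, at 96.5 ± 7.51 CPM in wild type and 118 ± 4.70 CPM in knockout samples (two-sided exact permutation p = 0.0159, 0.143 adjusted over 9 sums). With TMM scaling it was at 113 ± 20.99 CPM (SD, n = 5) and 123 ± 10.5 CPM (SD, n = 4), which overlapped (exact permutation p = 0.349). On unscaled totals, endothelial markers summed to 16.1 to 73.9 CPM in wild type and 27.2 to 68.1 CPM in knockout samples, and macrophage markers to 20.1 to 75.5 and 25.1 to 65.4 CPM. No pair of replicates matched within sampling noise, the lowest chi-square per gene over 16 pairs being 23.4.

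Both targeted genes fell in all 4 knockout samples. Yap1 (chromosome 9, 7931999 to 8004596 of mm10) stood at 46.6, 37.4, 73.6, 49.5 and 49.3 CPM in wild type replicates 1 to 5 and at 2.20, 2.57, 1.21 and 8.04 CPM in knockout replicates 1 to 4. Wwtr1 (chromosome 3, 57455649 to 57575910), which encodes TAZ, stood at 10.9, 12.1, 9.86, 18.9 and 12.1 CPM in wild type and 1.41, 1.20, 2.36 and 2.51 CPM in knockout samples. The groups did not overlap for either gene, and knockout replicate 4 kept the most of both. Yap1 fell by 3.91 ± 0.47 on the log2 scale (adjusted p = 0.000177), and its mean knockout level was 6.83% of the wild type mean, with single samples at 2.36 to 15.7%. Wwtr1 fell by 2.77 ± 0.31 (adjusted p = 8.42e-05) to 14.6% of the wild type mean, with single samples at 9.38 to 19.7%. Exact permutation of the 9 samples gave a two-sided p of 0.00794 for each gene, the smallest that 4 against 5 allow. Remaining RNA in some cells and lower RNA in all cells cannot be told apart in bulk samples.

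**Figure D1:**
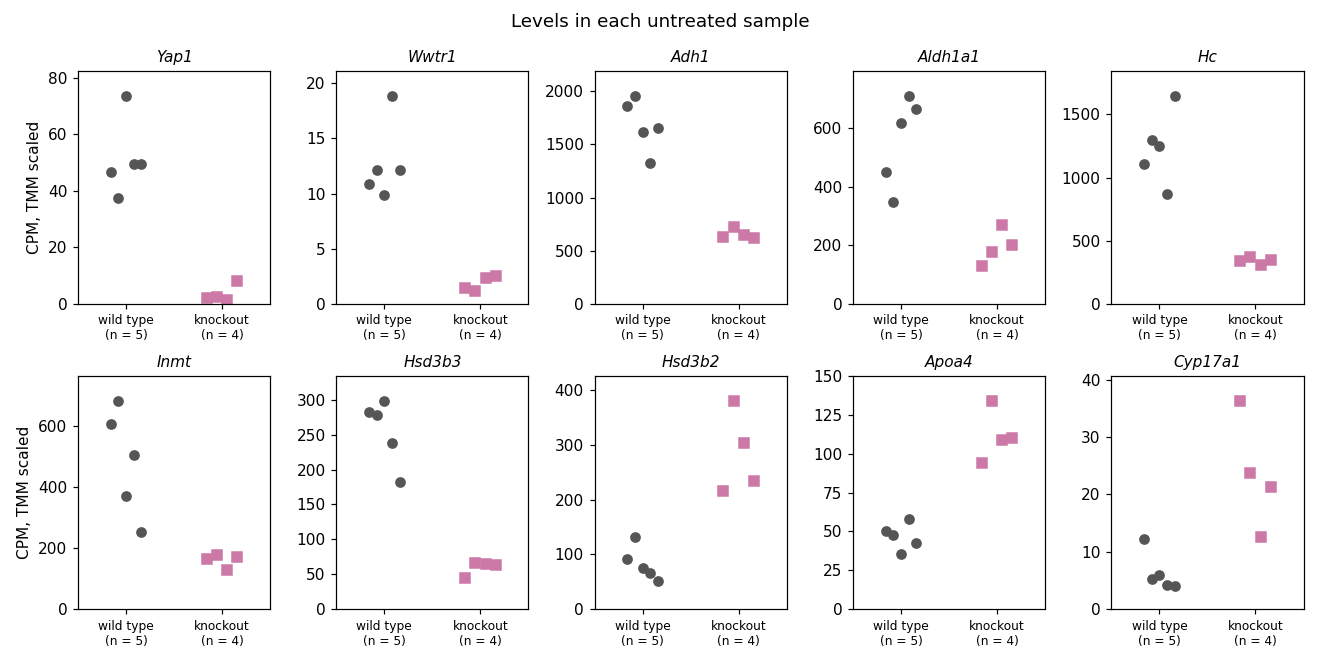
Level of 10 genes in CPM of TMM-scaled library sizes on linear axes that start at 0, with 1 point per sample for 5 wild type and 4 knockout samples. Yap1, Wwtr1, Adh1, Aldh1a1, Hc, Inmt and Hsd3b3 sit lower in the 4 knockout samples than in any wild type sample, and Hsd3b2, Apoa4 and Cyp17a1 sit higher.

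Across all genes, 128 of 13721 were called, 0.933% of those tested. Of these, 80 rose (0.583%) and 48 fell (0.35%). The same test gave 1203 genes at an unadjusted p under 0.05. The levels of the groups did not overlap for 500 genes (3.64%), and 127 of the 128 called genes were among them. The exception was Oxct1, described below.

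Genes were kept apart in 3 classes. A gene was put near an allele if it lay within 10 Mb of Yap1 or Wwtr1, and called a copy if it was a pseudogene by annotation, bore a symbol of the Gm or -ps kind, or belonged to a family of like genes such as Ugt, Mup, Gsta or ribosomal protein genes. All others were unique by this naming rule. Near the alleles 3 of 99 tested genes were called (3.03%), among copies 47 of 1543 (3.05%), and among unique genes 78 of 12079 (0.646%). The 3 near the alleles are Yap1, Wwtr1 and Mme, so that share holds the targeted genes themselves and Mme is the only called neighbour. Of the called copies 34 rose and 13 fell, and of the called unique genes 46 rose and 32 fell. The median size of the change was 5.604 on the log2 scale for called copies and 1.68 for called unique genes, and 42 of the 75 genes with a change of 4-fold or more were copies.

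The naming rule missed some copies. Copies were then defined by sequence. Such a gene shared with another at least 25% of the distinct 31-base words of its transcripts or of the partner's. By this rule 16 called genes that were unique by name counted as copies. Tdg, Rnps1, Atp6v0c, Cwc22, Glo1 and the Tmem254 genes are among them. So are Lhx6 and Cspg5. Of the genes named here only the Tmem254 genes met the rule by the share of their own words. The others met it only through the share of a partner gene. The words shared with a partner were at most 22.4% of those of Cwc22, 17.7% of Tdg, 12.8% of Rnps1 and 11.9% of Atp6v0c. They were 3.73% of those of Glo1, and fewer still of Lhx6 and Cspg5, as given below. Under either rule 63 called genes were copies and 62 unique, and 58 genes were unique by both rules and matched to the annotation, of which 34 rose and 24 fell.

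**Figure D2:**
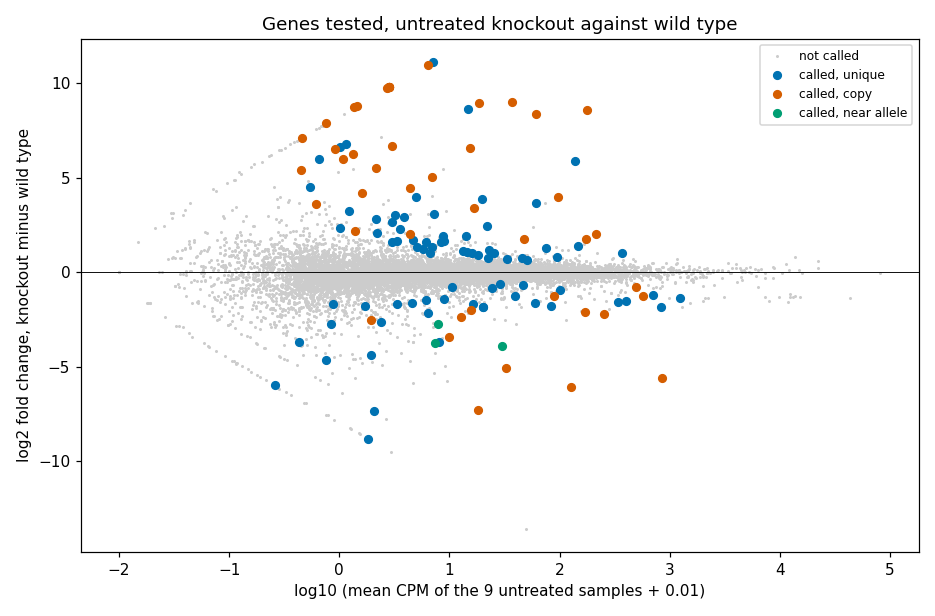
Log2 fold change of knockout against wild type for 13721 genes (vertical) by mean level, as log10 of CPM plus 0.01 (horizontal), with the 128 called genes coloured by class. The size of the change has a median of 5.604 for called copies and 1.68 for called unique genes, and both classes hold changes of over 4-fold in either direction.

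Several of the largest changes lay in genes that differ from an intronless copy at a handful of bases. Short coding stretches of 3 such sets are shown because the bases in capitals, which differ between members, are all that separates their reads there. They are read from the GENCODE transcripts of mm10, 5′ to 3′ on the coding strand.
Rps3a1: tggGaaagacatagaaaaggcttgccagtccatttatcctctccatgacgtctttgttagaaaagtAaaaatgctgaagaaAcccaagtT
Rps3a2: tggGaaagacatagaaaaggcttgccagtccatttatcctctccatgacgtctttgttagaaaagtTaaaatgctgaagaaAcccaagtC
Rps3a3: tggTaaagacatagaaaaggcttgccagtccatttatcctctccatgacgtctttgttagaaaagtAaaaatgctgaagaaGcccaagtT
Tdg: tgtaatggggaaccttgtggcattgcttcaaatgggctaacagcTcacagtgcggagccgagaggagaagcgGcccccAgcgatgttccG
Gm9855: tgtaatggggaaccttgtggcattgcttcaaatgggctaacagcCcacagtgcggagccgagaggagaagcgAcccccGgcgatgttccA
Rnps1: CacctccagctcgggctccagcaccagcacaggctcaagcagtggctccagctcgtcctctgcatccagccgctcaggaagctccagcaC
Gm9825: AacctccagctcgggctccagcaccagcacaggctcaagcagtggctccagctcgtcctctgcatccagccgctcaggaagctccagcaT
The Rps3a stretch spans coding bases 579 to 668, that of Tdg bases 1084 to 1173 and that of Rnps1 bases 243 to 332. Over the whole aligned coding sequence Rps3a2 differed from Rps3a1 at 4 of 792 bases and Rps3a3 at 9, Gm9855 from Tdg at 9 of 1191, and Gm9825 from Rnps1 at 5 of 843.

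Rps3a1, on chromosome 3, encodes a protein of the small ribosomal subunit. Its level was 218, 209, 237, 221 and 239 CPM in wild type and 1.36, 3.34, 5.33 and 3.18 CPM in knockout samples (-6.09 ± 0.37, adjusted p = 1.34e-07). Its processed pseudogenes went the other way: Rps3a2, on chromosome 14, was at 0, 0, 1.26, 0 and 0.578 CPM in wild type and 137, 126.4, 146 and 134 CPM in knockout samples (8.35 ± 0.70, adjusted p = 3.92e-05). Rps3a3, on chromosome 13, was at 0, 0.667, 0, 0 and 0.145 and 68.2, 80.8, 96.1 and 87.4 CPM (9.002 ± 0.85, adjusted p = 1.52e-05). No sample of one group reached the range of the other for any of the 3 genes. The set as a whole summed to 226 ± 13.05 CPM (SD, n = 5) in wild type and 222 ± 18.5 CPM (SD, n = 4) in knockout samples, and the sums overlapped.

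Tdg, which encodes thymine DNA glycosylase, and its pseudogene Gm9855 divided the same way. Tdg was at 11.7, 9.34, 16.6, 16.2 and 14.8 CPM in wild type and 1.32, 0.856, 1.15 and 0.838 CPM in knockout samples (-3.69 ± 0.25, adjusted p = 4.86e-07), and Gm9855 at 0, 2.0012, 0, 0.295 and 0 and 13.9, 11.3, 18.6 and 16.6 CPM (5.06 ± 0.98, adjusted p = 0.0153; DESeq2 did not call it). Their sum was 14.2 ± 2.54 CPM in wild type and 16.1 ± 3.23 CPM in knockout samples. For Rnps1, a protein that binds spliced RNA at exon junctions, the levels were 25.8, 28.6, 21.9, 16.7 and 23.8 CPM in wild type and 4.43, 4.96, 5.88 and 13.99 CPM in knockout samples (-1.68 ± 0.29, adjusted p = 0.00564, and 0.0595 when the 9 untreated samples were fitted alone). Gm9825 had no count in wild type and 14.4, 20.2, 15.4 and 7.87 CPM in knockout samples, at least 315-fold higher against a floor of 3 counts over the group, which covers counting error only. In knockout replicate 4, where Rnps1 was highest of its group, Gm9825 was lowest. The sums of the pair, 23.4 ± 4.46 and 21.8 ± 2.62 CPM, overlapped.

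In all, 31 sets of genes linked by shared words held 54 called genes. In 7 sets, with 21 called genes, some members rose and others fell, and for 6 of these 7 the summed level overlapped between the groups. Over all 31 sets 17 sums overlapped and 18 lay within 0.5 of 0 on the log2 scale. In some of these sets, such as those of Ugt2b38 and Mup19 described below, the called gene made up a small part of the sum. There the sum is set by the other members and cannot show whether counts moved between copies. Ribosomal protein gene Rps2 was lower (567.98, 603, 536, 641 and 699.6 against 347, 291, 345 and 426 CPM, -0.79 ± 0.16, adjusted p = 0.0186) and Rps2-ps10 and Gm6311 were higher (3.95 and 8.96, the latter not called by limma voom with or without quality weights), while the set summed to 628 ± 75.3 and 622 ± 17.7 CPM. The call of Rps2 was lost without knockout replicate 1, 2 or 3 (adjusted p = 0.0704, 0.0750 and 0.0691) and with unscaled totals (0.140). Another ribosomal protein gene, Rpl34, was at 64.5, 66.7, 64.9, 38.5 and 54.0 CPM in wild type and 1.01, 2.74, 1.81 and 1.34 CPM in knockout samples (-5.09 ± 0.44, adjusted p = 4.22e-06), and its set summed to 79.97 ± 11.1 and 76.2 ± 23.9 CPM. The set of Rpl15-ps3 summed to 151 ± 10.1 and 134 ± 12.02 CPM. Atp6v0c, a subunit of the proton pump of lysosomes, was the mixed set whose sums did not overlap. The gene was at 112, 125.7, 97.7, 127 and 140.3 CPM in wild type and 49.5, 29.4, 12.5 and 50.2 CPM in knockout samples (-1.77 ± 0.30, adjusted p = 0.0052, 0.0557 in the 9 untreated samples alone). Its pseudogene Atp6v0c-ps2 was higher (1.74 ± 0.25, adjusted p = 0.000904), and the pair summed to 144 ± 13.6 and 113 ± 14.8 CPM.

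The Ugt1a genes, glucuronosyltransferases that share their last exons and differ in their first, also moved in both directions. Ugt1a1, the enzyme that conjugates bilirubin, fell from 426, 371, 267, 503 and 360.1 CPM to 54.9, 68.5, 94.0 and 110.2 CPM (-2.23 ± 0.22, adjusted p = 2.05e-05), and Ugt1a5 fell by 2.02 ± 0.36. Ugt1a9 rose from 119, 80.7, 69.6, 134 and 51.8 CPM to 339, 312, 407 and 420.1 CPM (2.02 ± 0.27, adjusted p = 0.000547), Ugt1a10 by 2.03 ± 0.37 and Ugt1a8 by 5.54 ± 0.81. No knockout sample reached the wild type range of Ugt1a1 or Ugt1a9. The whole set summed to 788 ± 103 CPM in wild type and 683 ± 110 CPM in knockout samples, with overlap. The call of Ugt1a5 was lost in the 9 untreated samples alone.

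**Figure D3:**
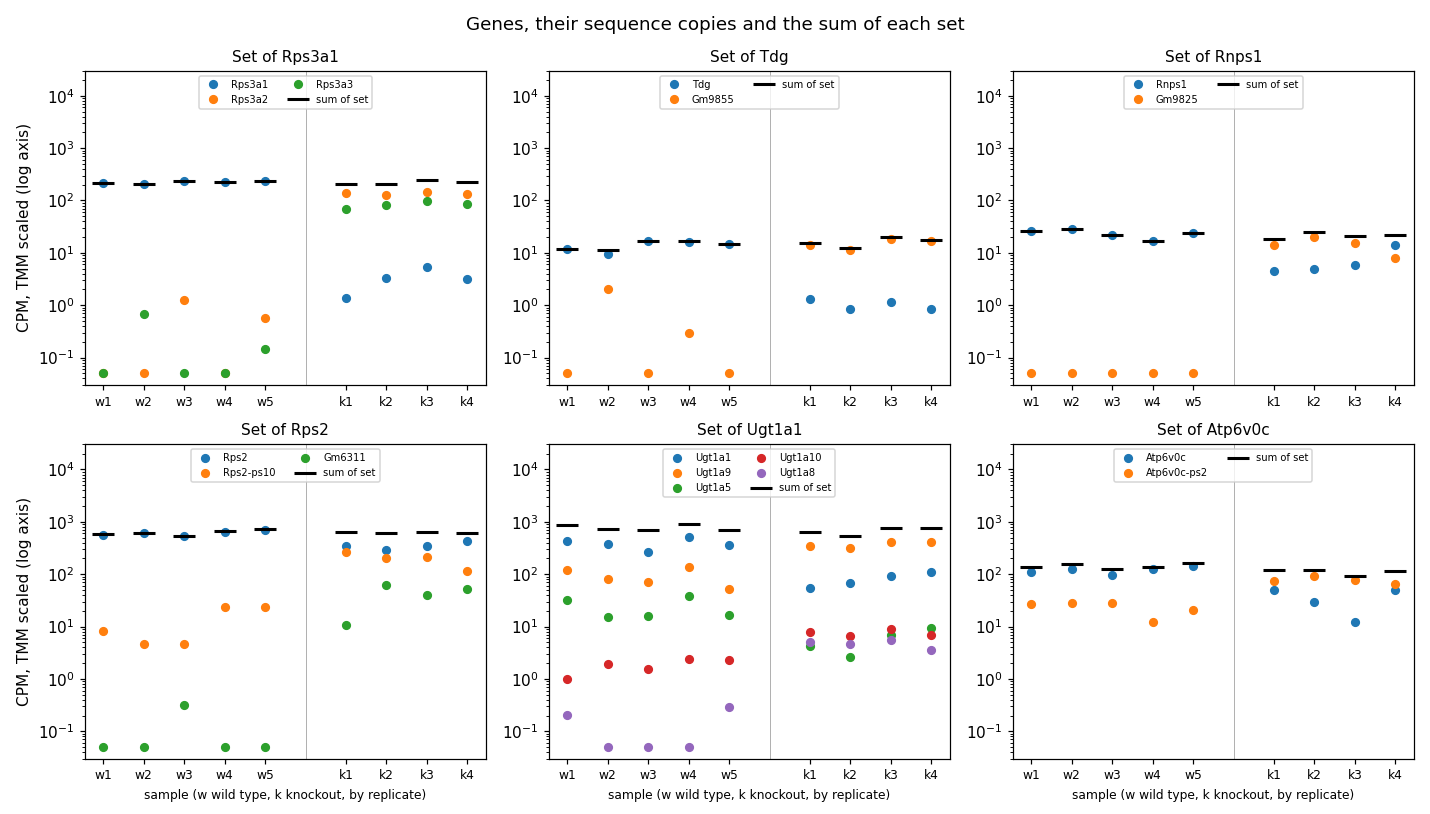
Level of each member of 6 copy sets in each of the 9 samples, in CPM on a log axis, with values under 0.05 CPM, 0 included, drawn at 0.05 and a black bar at the sum of the set. Members cross between wild type and knockout samples while the summed bars overlap for the sets of Rps3a1, Tdg, Rnps1, Rps2 and Ugt1a1. The bars of the Atp6v0c pair do not overlap.

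Other copies changed together with their set. Cwc22, a spliceosome-associated protein whose gene is known to vary in copy number between mouse strains, was at 14.3, 9.67, 9.92, 8.18 and 7.23 CPM in wild type and 111, 103, 104 and 184 CPM in knockout samples (3.67 ± 0.27, adjusted p = 7.51e-07). Its 6 tandem copies on chromosome 2, Gm13691 among them, carried identical counts in every sample, with none in wild type, and were at least 132-fold higher. With Gm13727 the set summed to 9.86 ± 2.72 CPM in wild type and 133 ± 42.0 CPM in knockout samples. Glo1, the glyoxalase that clears methylglyoxal and another gene known to vary in copy number between strains, rose from 215, 235, 318, 252 and 242 CPM to 454, 591, 567.6 and 414 CPM (1.01 ± 0.18, adjusted p = 0.00724), with its pseudogene at 320 ± 51.8 and 659 ± 110 CPM in sum. In the CCl4 samples the change of Glo1 was -0.27 and did not pass the test (adjusted p = 0.44). The untreated change minus the CCl4 change was 1.27 (adjusted p = 0.0431, and 0.121 without libraries over 30% mitochondrial). Tmem254a, Tmem254b and Tmem254c, of which the first pair carried identical counts, fell by 1.83, 1.83 and 1.63, and their sum went from 116 ± 22.8 to 36.2 ± 2.44 CPM. No source used here gives the strain of the samples, so strain and genotype cannot be told apart. This holds for these genes and for the sets of Rps3a1, Tdg, Rnps1, Rps2, Rpl34 and Ugt1a1 above. It holds equally for every other gene described here, the unique genes included.

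Other members of gene families were also among the copies. Hsd3b3 and Hsd3b2 encode 3-beta-hydroxysteroid dehydrogenases and lie side by side on chromosome 3. Hsd3b3 fell from 283, 279, 298, 237 and 182 CPM to 44.5, 66.2, 65.3 and 63.3 CPM (-2.10 ± 0.25, adjusted p = 0.000177). Hsd3b2 rose from 91.1, 132, 74.9, 65.1 and 51.3 CPM to 215, 379.9, 303 and 234 CPM (1.77 ± 0.32, adjusted p = 0.00644). Their groups did not overlap, in opposite directions, and neither call was lost when any library was left out. Ugt2b38 was at 17.1, 55.3, 35.4, 21.4 and 33.3 CPM in wild type and 0.263, 0.342, 0.165 and 0 CPM in knockout samples (-7.30 ± 0.57, adjusted p = 1.35e-06). With Ugt2b5, which made up most of the sum, it summed to 911 ± 107 and 883 ± 76.8 CPM, with overlap. Mup19, a major urinary protein gene, was at 4064, 1789, 923, 404 and 329 CPM in wild type and 22.4, 37.8, 24.9 and 38.5 CPM in knockout samples (-5.60 ± 1.02, adjusted p = 0.00806), while all 41 Mup genes of the table summed to 84311 ± 31663 and 94247 ± 58080.4 CPM. The glutathione transferase gene Gsta3 fell by 1.28 ± 0.22 (adjusted p = 0.00587), a call lost with unscaled totals. The lincRNA Gm26825, a copy by its name alone, rose from 1.01 to 399 CPM on average (8.57 ± 1.09, adjusted p = 0.000346).

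Around the targeted genes, few genes were called, to be read beside the 0.933% called over all genes tested. Within 10 Mb, 36 genes near Yap1 and 63 near Wwtr1 were tested, and besides the targeted genes themselves Mme alone was called. Mme, which encodes the membrane peptidase neprilysin, lies 5.79 Mb from Wwtr1 (chromosome 3, 63241537 to 63386030). It was at 11.5, 7.59, 11.2, 19.1 and 13.2 CPM in wild type and 1.19, 1.03, 0.879 and 0.503 CPM in knockout samples, which did not overlap (-3.76 ± 0.54, adjusted p = 0.000963; 0.0575 with limma voom). From 10 to 20 Mb, 1 of 83 genes was called beside Yap1 (Rpl15-ps3) and 1 of 33 beside Wwtr1 (B3galnt1). From 20 to 30 Mb, 3 of 78 were called beside Wwtr1 (3.85%), namely Asic5, Rps3a1 and Cd1d2, and 0 of 34 beside Yap1. From 30 to 50 Mb, 5 of 274 were called beside Wwtr1 (1.82%), Hsd3b2 and Hsd3b3 among them, and 3 of 151 beside Yap1 (1.99%). Linkage of these genes to the alleles was not tested. On chromosome 3 as a whole 15 of 652 tested genes were called (2.30%), on chromosome 9 7 of 732 (0.956%) and on chromosome 2 20 of 1126 (1.78%). Of 284 windows of 10 Mb with a tested gene, 206 held no called gene and 4 held at least 4. The densest, 80 to 90 Mb of chromosome 2, held 9 called of 36 tested, 6 of them the Cwc22 copies with identical counts, with Fam171b, Zc3h15 and Olfr1033.

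**Figure D4:**
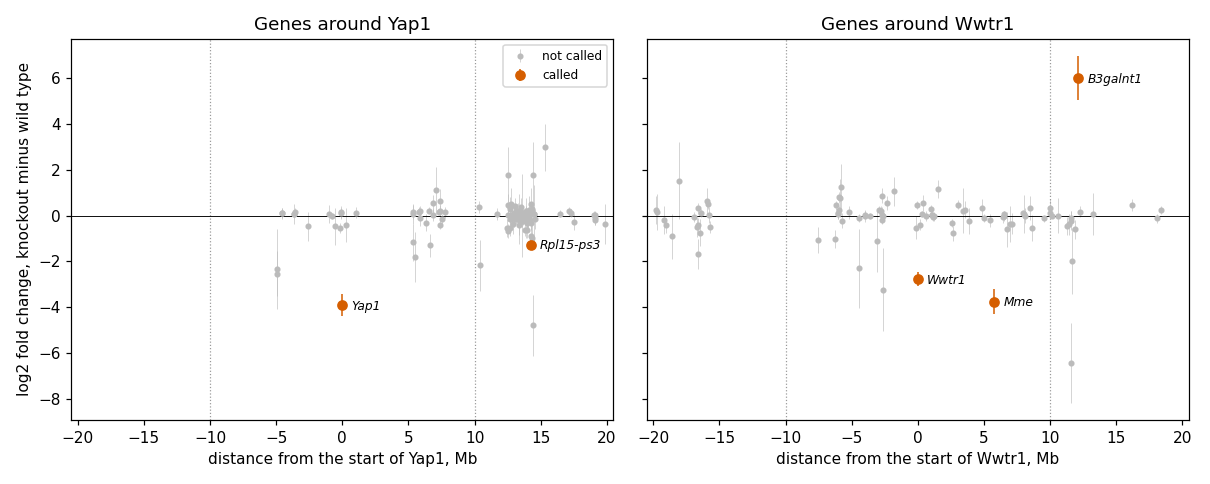
Log2 fold change with its standard error for tested genes within 20 Mb of Yap1 (left) and Wwtr1 (right), by distance from the start of the targeted gene in Mb, with dotted lines at 10 Mb. The called genes are Yap1 and Rpl15-ps3 on the left, and Wwtr1, Mme and B3galnt1 on the right, and no other gene within 20 Mb was called.

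Of the 58 genes unique by both rules, 22 were called with each of the 9 libraries left out in turn, 10 lower and 12 higher. The lower ones included abundant liver enzymes and a complement factor. Hc, which encodes complement C5, was at 1111, 1295, 1249, 868 and 1648 CPM in wild type and 342, 367, 303 and 349 CPM in knockout samples. It fell by 1.86 ± 0.20 on the log2 scale (adjusted p = 4.21e-05), and the highest knockout sample was below every wild type sample. Of the list of acute phase and complement genes, which does not hold Hc, 0 of 32 were called (edgeR; 1 at an unadjusted p under 0.05, and 1 called by DESeq2).

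Adh1 and Aldh1a1 act on alcohols and on the aldehydes made from them, retinol and retinal included. Adh1 was at 1866, 1959, 1616, 1329 and 1653 CPM in wild type and 630.4, 719.6, 649.9 and 619 CPM in knockout samples (-1.36 ± 0.21, adjusted p = 0.00223). Aldh1a1, which marks hepatocytes near the central vein, was at 452, 349, 617, 711 and 666 CPM in wild type and 128, 177, 271 and 199 CPM in knockout samples (-1.53 ± 0.27, adjusted p = 0.00596). Neither gene's groups overlapped. Adh6-ps1, a transcribed pseudogene of the same enzyme family that counts as a copy, fell with them by 2.36 ± 0.34 (adjusted p = 0.000963).

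The other lower genes of the 22 were Ldlrad3, a membrane protein with LDL-receptor repeats (-2.15 ± 0.20, adjusted p = 1.52e-05), Pctp, Fads6, Recql, Naip2, Erbb4 and Olfr1033. Pctp carries phosphatidylcholine between membranes and was at 57.5, 56.1, 53.3, 68.0 and 30.6 CPM in wild type and 25.3, 19.5, 22.9 and 21.8 CPM in knockout samples (-1.25 ± 0.19, adjusted p = 0.00213, 0.0709 with unscaled totals). Fads6, of the fatty acid desaturase family, fell by 0.96 ± 0.17 (adjusted p = 0.0071, 0.223 with unscaled totals), and the DNA helicase gene Recql by 1.47 ± 0.29 (adjusted p = 0.0156, 0.0825 in the 9 untreated samples alone). Naip2, an inflammasome sensor of bacterial proteins, was at 4.23, 4.17, 2.76, 3.17 and 2.24 CPM in wild type and 0.220, 0.257, 0.0550 and 0.0838 CPM in knockout samples (-4.37 ± 0.74, adjusted p = 0.00428; limma voom did not call it). Erbb4, a receptor of the EGF receptor family, had 5.44, 3.34, 1.51, 4.94 and 1.01 CPM in wild type and no count in any knockout sample, at least 65.7-fold lower against the floor of 3 counts. Olfr1033, an olfactory receptor gene, had 249 counts in wild type and 1 in knockout samples, a ratio of 247 with a 95% counting interval of 43.8 to 9777 (adjusted p = 0.000308; limma voom gave 0.0685).

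Further genes fell, with calls that were lost when single libraries were left out. Inmt, an N-methyltransferase of indoleamines, was at 606, 680.2, 370.1, 503 and 250.3 CPM in wild type and 162, 177, 127 and 169 CPM in knockout samples, which did not overlap (-1.60 ± 0.34, adjusted p = 0.0281). Its call was lost without any of the 4 knockout replicates or wild type replicate 1, 2 or 4, with adjusted p up to 0.110. Sord, sorbitol dehydrogenase, was at 1041, 1019, 1068, 736 and 858 CPM in wild type and 570.1, 319, 364 and 383 CPM in knockout samples (-1.21 ± 0.26, adjusted p = 0.0327). That call was lost without knockout replicate 2, 3 or 4 or wild type replicate 1, 2 or 3, with adjusted p up to 0.122. Ppl, the desmosomal protein periplakin, fell by 1.44 ± 0.33 (adjusted p = 0.0496), which was lost without knockout replicate 1, 3 or 4 or wild type replicate 1, 2, 3 or 5 (up to 0.181). ENSMUSG00000079662, which has no entry in the annotation, fell by 1.63 ± 0.34 (adjusted p = 0.0236), lost without knockout replicate 1, 2 or 3 or wild type replicate 3 or 5 (up to 0.0918).

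The 12 higher genes of the 22 were mostly genes of low level in wild type. Fam171b was at 0, 0, 0.0628, 0.221 and 0.0723 CPM in wild type and 22.3, 14.6, 51.6 and 43.8 CPM in knockout samples (8.63 ± 0.63, adjusted p = 7.51e-07). Asic5, an ion channel of the acid-sensing family that bile acids can open, was at 4.44, 1.92, 3.02, 2.65 and 2.10 CPM in wild type and 22.7, 24.0, 56.0 and 62.0 CPM in knockout samples (3.87 ± 0.43, adjusted p = 7.58e-05). For both genes every knockout sample was above every wild type sample, and knockout replicates 3 and 4 stood above replicates 1 and 2. Gpat3, an acyltransferase that starts the synthesis of glycerolipids, rose from 4.13, 2.75, 3.58, 3.02 and 5.93 CPM to 8.74, 13.7, 16.3 and 19.8 CPM (1.91 ± 0.31, adjusted p = 0.0027).

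The remaining higher genes of the 22 ranged from Nudt18 to Sntg1. The nudix hydrolase gene Nudt18 rose by 1.06 ± 0.17 (adjusted p = 0.00294), the meiosis gene Meiob by 1.57 ± 0.25 (adjusted p = 0.00271) and the imprinted sarcoglycan gene Sgce by 1.67 ± 0.29 (adjusted p = 0.0052). Il1f9, which encodes the cytokine interleukin 36 gamma, was at 1.01, 0.834, 0.817, 0.958 and 0.795 CPM in wild type and 5.05, 4.71, 4.397 and 8.29 CPM in knockout samples (2.66 ± 0.41, adjusted p = 0.00181). The transcript AA465934 rose by 2.80 ± 0.48 and Hddc3, an HD-domain hydrolase gene, by 3.05 ± 0.50. Sntg1, Hdx and B3galnt1 had 1 count each over the 5 wild type samples and 158, 138 and 112 counts over the knockout samples, ratios of 160, 139 and 113. The 95% counting intervals of these ratios were 28.2 to 6342, 24.6 to 5544 and 19.9 to 4507. The call of B3galnt1 was lost in the 9 untreated samples alone. Hdx overlaps the called pseudogene Gm7340, and without a stated strand their reads cannot be told apart.

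ENSMUSG00000095454 and ENSMUSG00000083840, which have no entry in the annotation, rose as well. The first had no count in wild type and 15.02, 31.8, 9.12 and 8.21 CPM in knockout samples, at least 329-fold higher against the floor. The second went from 14.4, 1.83, 2.89, 0 and 7.30 CPM to 315, 131, 388 and 376 CPM (5.86 ± 1.04, adjusted p = 0.00644). Without an annotation they could not be assigned to a class with certainty.

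Other genes rose too, and most of the calls that follow were lost when single libraries were left out. Hes1, a transcriptional repressor that Notch signalling induces, was at 4.54, 13.6, 2.58, 10.5 and 4.99 CPM in wild type and 30.1, 30.98, 18.0 and 80.8 CPM in knockout samples (2.46 ± 0.50, adjusted p = 0.0205). Without knockout replicate 4, the highest, its change was 1.86 (adjusted p = 0.0993), and the call was also lost without wild type replicate 1 or 5 (0.0641 and 0.0571). Apoa4, an apolipoprotein of triglyceride-rich particles, was at 50.4, 47.9, 35.6, 58.3 and 42.3 CPM in wild type and 93.9, 134, 109 and 109.97 CPM in knockout samples (1.25 ± 0.26, adjusted p = 0.0239). Its groups did not overlap, yet the call was lost without knockout replicate 2, 3 or 4 or wild type replicate 1, 2, 3 or 5, with adjusted p of 0.0545 to 0.0832.

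Cyp17a1, the steroid 17-alpha-hydroxylase, was at 12.3, 5.25, 5.97, 4.20 and 4.05 CPM in wild type and 36.3, 23.8, 12.6 and 21.4 CPM in knockout samples (1.90 ± 0.42, adjusted p = 0.0406). The highest wild type sample, at 12.3 CPM, nearly met the lowest knockout sample, at 12.6 CPM, and the call was lost without knockout replicate 1, 2 or 4 or wild type replicate 2, 3, 4 or 5 (up to 0.158). Abca3, a phospholipid transporter, rose from 68.5, 45.1, 104, 101 and 108 CPM to 259, 176, 286 and 169 CPM (1.39 ± 0.28, adjusted p = 0.0186), lost without knockout replicate 1 or 3 or wild type replicate 1 (up to 0.0783). Oxct1, the enzyme that lets tissues use ketone bodies, was at 0.605, 0.334, 1.13, 0.811 and 2.02 CPM in wild type and 20.4, 5.05, 3.13 and 1.34 CPM in knockout samples (2.92 ± 0.67, adjusted p = 0.0496). Its knockout and wild type samples overlapped at 1.34 and 2.02 CPM, and without knockout replicate 1 the change was 1.67 (adjusted p = 0.306). The call of Oxct1 was also lost without knockout replicate 2 or wild type replicate 1, 2, 3 or 4. Sorl1, a sorting receptor, rose by 3.10 ± 0.60 (adjusted p = 0.0153; 0.0594 without knockout replicate 3 and 0.0504 without replicate 4). The palmitoyltransferase gene Zdhhc2 rose by 3.97 ± 0.85 (adjusted p = 0.0313), a call lost without knockout replicate 3 or 4 or any wild type replicate (up to 0.107). Cspg5 rose by 2.29 ± 0.36 (adjusted p = 0.00255) and the homeobox gene Lhx6 by 1.68 ± 0.33 (adjusted p = 0.0156, 0.0842 without knockout replicate 4 and 0.0504 without wild type replicate 2). Cspg5 and Lhx6 count as copies by the sequence rule only through a small annotated gene. The words shared with it were 0.228% of those of Cspg5 and 1.60% of those of Lhx6. Other settings lost some calls described so far as well. In the 9 untreated samples alone Hes1, Abca3, Cyp17a1, Oxct1 and Ppl were not called, with adjusted p of 0.0522 to 0.179. Limma voom did not call Cyp17a1, Oxct1, Zdhhc2, Lhx6 or Ppl, and unscaled totals lost Sord, Inmt and Ppl (0.225, 0.0838 and 0.144).

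Genes known to be targets of YAP and TAZ with TEAD did not pass the test. None of 20 tested targets was called by edgeR, with 3 at an unadjusted p under 0.05. Their median log2 fold change was -0.06, with 9 above 0. Over all genes tested the median was -0.01, with 6711 of 13721 above 0. For this and every list below, the values over all genes were 0.933% called by edgeR, 1203 of 13721 at an unadjusted p under 0.05, and 328 called by DESeq2. DESeq2 called 2 of the targets. Ccn2, which encodes connective tissue growth factor, was at 0, 0, 0.0628, 0.147 and 0 CPM in wild type and 0.220, 8.13, 0.0550 and 0.0838 CPM in knockout samples (adjusted p = 0.134), knockout replicate 2 standing alone. Birc5, the apoptosis inhibitor survivin, was at 1.71, 1.08, 1.82, 3.10 and 24.6 CPM in wild type and 1.36, 1.20, 0.330 and 0.921 CPM in knockout samples (adjusted p = 0.178), with wild type replicate 5 standing alone. Ccn1 was at 22.9 ± 18.3 CPM (SD, n = 5) in wild type and 21.6 ± 14.7 CPM (SD, n = 4) in knockout samples (adjusted p = 0.992). Of the Hippo pathway kinases, adaptors and TEAD factors 0 of 27 were called by edgeR (2 at an unadjusted p under 0.05, 0 called by DESeq2), the nearest being Amotl1 (-1.30, adjusted p = 0.379).

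Among lists of hepatocyte functions, 0 to 2 genes per list were called. Of the pericentral genes, those expressed near the central vein, 1 of 23 fell (Aldh1a1) and none rose; their median was -0.67, with 4 above 0. Cyp2a5 (-2.52, adjusted p = 0.193), Cyp2c37 (-1.83, adjusted p = 0.196) and Cyp2c29 (-1.52, adjusted p = 0.343), enzymes that oxidise drugs and steroids, missed the threshold. All 3 are copies by the naming rule and were chosen after their values were seen. Cyp2a5 was split in knockout replicates 1 to 4, at 50.6, 0.257, 26.8 and 46.8 CPM. Of the xenobiotic enzymes 2 of 28 fell (Ugt1a1 and Aldh1a1), with a median of -0.53. Of the 28, 11 had an unadjusted p under 0.05, beside 1203 of the 13721 genes tested. Of the periportal genes, those of the lobule's other end, 1 of 22 rose (Apoa4), with a median of 0.13.

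Cholesterol synthesis had no called gene of 25 by edgeR (2 at an unadjusted p under 0.05, 1 called by DESeq2), a median of -0.41 and 1 fold change above 0. In bile acid synthesis and transport 0 of 28 were called by edgeR (5 at an unadjusted p under 0.05, 3 by DESeq2). Slc27a5, which activates bile acids for conjugation, came nearest at 1111, 992, 929, 946 and 1169.6 CPM in wild type and 539, 666, 606 and 692 CPM in knockout samples (-0.72, adjusted p = 0.0625), and its groups did not overlap. Of 32 hepatocyte identity genes none was called by edgeR (1 at an unadjusted p under 0.05, 0 called by DESeq2), with a median of 0.13.

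Other lists held a single call or none. Of 30 NRF2 antioxidant genes, Gsta1 fell (-2.56 ± 0.50, adjusted p = 0.0165; lost without knockout replicate 1, 2 or 4, up to 0.0716, and with limma voom, 0.534). Male-biased liver genes gave 1 lower of 26 (Ugt2b38) and female-biased genes 1 higher of 19 (Cyp17a1), and the cytosolic ribosomal proteins 1 lower of 30 (Rps2). That list does not hold Rps3a1 and Rpl34, which fell as members of the copy sets above. Cell cycle genes had no call of 31 by edgeR, with a median of -0.77, 15 at an unadjusted p under 0.05 and 10 called by DESeq2. Their summed level, in CPM of unscaled totals, was highest in wild type replicate 5 at 303, lowest in wild type at 116, and 105 to 201 in knockout samples. Without that replicate edgeR again called none of them. Of 22 endothelial markers none was called (edgeR; 2 at an unadjusted p under 0.05; median 0.64), and of 21 macrophage markers none (1 at an unadjusted p under 0.05; median -1.002). The 14 tested stellate and fibroblast markers (3 at an unadjusted p under 0.05; median -0.96) and 8 cholangiocyte markers (4; median -0.12) had no edgeR call either. DESeq2 called 2 of the cholangiocyte markers and none of the other 3 lists. The cholangiocyte and ductal marker Sox9 was at 4.44, 9.01, 3.14, 11.3 and 7.95 CPM in wild type and 16.6, 24.5, 11.8 and 14.8 CPM in knockout samples (1.23, adjusted p = 0.156), which did not overlap. Pkhd1, of the same list, was lower, at a mean of 6.33 CPM in wild type and 2.77 CPM in knockout samples (-1.20, adjusted p = 0.179). Its groups overlapped. Of the 8 cholangiocyte markers 4 had a fold change above 0.

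The other lists held no gene called by edgeR, beside 0.933% called over all genes. Their counts at an unadjusted p under 0.05 stand beside 1203 of 13721 over all genes. Among metabolic lists this covered lipogenesis and triglyceride synthesis (23 tested, median log2 fold change 0.06), fatty acid oxidation (25, -0.06), glucose and glycogen metabolism (24, 0.17), the urea cycle and amino acid breakdown (29, -0.04) and the nuclear-encoded respiratory chain (31, -0.06), with 2, 6, 0, 4 and 0 genes at an unadjusted p under 0.05. Among stress and immune lists it covered the interferon response (32, -0.21), cytokines and NF-kB targets (18, -0.39), immediate-early genes (27, 0.32), the unfolded protein response (27, 0.31) and p53 targets (24, -0.07), with 0, 1, 2, 4 and 3 genes at that p. It also covered clock genes (23, -0.23), TGF-beta and activin signalling (28, 0.23), fetal and imprinted genes (10, 0.32) and the actin cytoskeleton (27, -0.12), each with 2 genes at that p, and the mitochondrially encoded genes (15, -1.33) with 1. DESeq2 called 1 gene each of the unfolded protein, p53 and actin lists. Limma voom with quality weights called 1 each of the lipogenesis, urea cycle and TGF-beta lists. All 15 mitochondrially encoded genes had a fold change below 0. Their share of counts was 12.9, 20.1, 10.2, 5.32 and 30.7% in wild type replicates 1 to 5. In knockout samples it was 5.69 to 8.87%. The part of wild type replicate 5 in these fold changes was not tested. Few lymphocyte, neutrophil, and red cell and platelet markers were tested (2, 1 and 2), with 0 at an unadjusted p under 0.05.

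The untreated calls were then read in the CCl4 libraries, which share no sample with them, although both contrasts come from 1 fit. There 1622 genes were called between genotypes (11.8%), 1045 of them higher (7.62%). Markers of other cells moved with that contrast. All 21 macrophage markers tested were called higher in knockout CCl4 samples, with a median log2 fold change of 5.26 (0.04 over all genes), and 7 of 22 endothelial markers were higher too. Summed macrophage markers were at 56.8 to 165 CPM in the 5 wild type CCl4 samples and at 196, 466.2 and 6566 CPM in knockout CCl4 replicates 1 to 3. Without the 2 libraries with over 30% mitochondrial counts named below, which include that last one, 6 of the 21 macrophage markers were called higher (median 2.42). Of the 22 endothelial markers 0 were then called, with a median of 0.53 in place of 1.96. The part of these cells in the CCl4 calls and in the differences between the 2 effects was not tested. Of the 128 untreated calls, 116 had the same sign after CCl4 and 87 were also called with that sign (68.0%). By class this held for all 3 genes near the alleles (Yap1, Wwtr1 and Mme), 41 of 47 copies and 43 of 78 unique genes. Of the 58 genes unique by both rules it held for 33. It held too for 30 of the 35 called genes with a mean under 0.5 CPM in one group. Without the 2 libraries with over 30% mitochondrial counts, wild type untreated replicate 5 and knockout CCl4 replicate 3, 79 genes were called in both comparisons with the same sign, and 555 genes were called after CCl4.

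Among the genes described above, Aldh1a1 (-1.89 after CCl4, adjusted p = 0.00127), Hc (-0.81, 0.0189) and Hsd3b3 (-2.57, 8.34e-05) were lower in both comparisons. Inmt (-2.32, 0.00179), Sord (-1.60, 0.00295) and Ugt1a1 (-1.79, 0.000384) were lower in both as well. Apoa4 (2.53, 7.48e-05), Cyp17a1 (2.50, 0.00215), Gpat3 (1.24, 0.0183), Il1f9 (3.10, 0.000505) and Fam171b (6.19, 6.87e-06) were higher in both. Adh1 had a change of -0.60 after CCl4 that did not pass the test (adjusted p = 0.103).

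**Figure D5:**
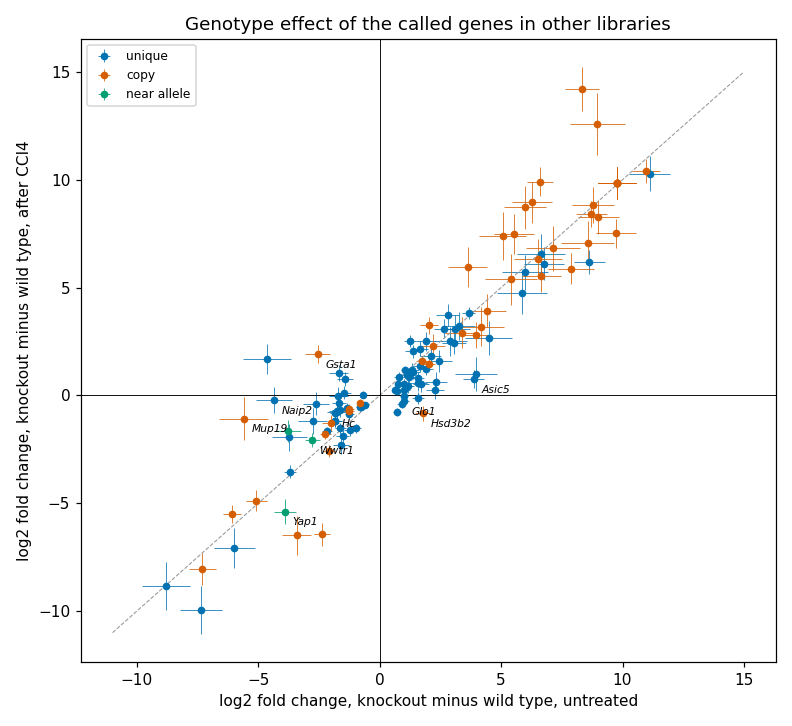
Log2 fold change of knockout against wild type in untreated samples (horizontal) and after CCl4 (vertical) for the 128 called genes, with standard errors and a dashed line of equal change. In both comparisons 116 genes have the same sign, and Gsta1 and Kcnn2 were called in opposite directions.

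The difference between the 2 genotype effects was tested directly and passed for 150 of 13721 genes (1.09%), 12 of them among the 128 and 4 among the 21 macrophage markers. Gsta1 was lower in untreated knockout samples and higher after CCl4 (1.92, adjusted p = 0.0068), a difference of -4.48 (adjusted p = 0.0204). Kcnn2, a calcium-activated potassium channel, was higher in untreated knockout samples (0.71, adjusted p = 0.0435) and lower after CCl4 (-0.77, adjusted p = 0.0116). Its untreated call was lost without knockout replicate 1, 3 or 4 or any wild type replicate, with adjusted p up to 0.143. Adh6-ps1 fell further after CCl4 (-6.44), with a difference of 4.08 (adjusted p = 0.0204). The other genes were Asic5, Cep72, Glo1, Hsd3b2, Meiob, Naip2, Pkmyt1, Ppl and Slu7. Without the 2 libraries of over 30% mitochondrial counts, Adh6-ps1 (adjusted p = 0.0151) and Gsta1 (0.0318) still passed, and the 10 others did not, with adjusted p of 0.0598 to 0.176. Naip2 in knockout CCl4 samples was at 0.419, 1.57 and 8.74 CPM, the last in the library with over 30%, and its change after CCl4 went from -0.21 to -1.998 without it.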

How the data were processed

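RNA of FACS-sorted hepatocytes was sequenced. The authors deposited 1 table of raw counts per gene and sample (23461 genes, of which 22929 identifiers matched GENCODE). Per the submitters' processing notes STAR 2.4.1d aligned the reads, the build was mm10, and FastQC, DESeq2, edgeR and limma were named too. The sources used here do not give the counting tool, its strand setting or its annotation.

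Counts of all 17 samples were fitted in R 4.3.3 with edgeR 4.0.16, 1 mean per group, after filterByExpr (minimum count 10, minimum total 15), with TMM scaling and the robust quasi-likelihood F test; p-values were adjusted by Benjamini-Hochberg over 13721 genes. A standard error is the absolute log2 change divided by the root of its F value. Single sums were compared by two-sided exact permutation. Tested on simulated data of this comparison, 32% of 100 genes changed 2-fold and 75% of 100 changed 4-fold were recovered over 13721 genes.

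Genes named by rule were taken from Yap1 and Wwtr1, the 15 largest rises and falls of called unique genes and 5 of copies (mean at least 5 CPM in the higher group), called genes near the alleles, and from each list every called member or the 2 of smallest p. Other genes named (Sord, Fads6, Naip2, Erbb4, Olfr1033, Nudt18, Meiob, Sgce, AA465934, Sntg1, Hdx, B3galnt1, Abca3, Kcnn2, the partners of copies, Hsd3b2, Hsd3b3, Gsta3, Gm26825, Adh6-ps1, Ccn1 and the Cyp2 genes) were chosen after their values were seen. The comparison, the classes and the 36 gene lists were chosen with earlier results of these data known. Alternatives were RLE, upper-quartile and unscaled totals, other filters, DESeq2 1.42.0, limma 3.58.1 voom with and without quality weights, the 9 untreated samples alone, a replicate block, 1 surrogate variable (sva 3.50.0), no mitochondrial genes, no library over 30% mitochondrial, and each library left out. The sequence rule for copies was added after the data were seen and replaces shared protein words, which were not used here. Intervals and floors cover counting error only.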

Additional observations from a re-analysis of the deposited data

Results flagged for a closer look

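Among called genes and summed levels, 8 values stood far from the rest of their group, a flag that chance raises in about 1 of 20 groups. In the knockout samples these were the highest values of Cwc22 (184 CPM, replicate 4), Il1f9 (8.29 CPM, replicate 4), Rnps1 (13.99 CPM, replicate 4) and Gm4956 (2.396 CPM), and the lowest sum of the Ugt1a genes (469.6 CPM of unscaled totals). In the wild type samples they were the highest values of Cyp17a1 (12.3 CPM, replicate 1), Gm4956 (29.2 CPM) and Wwtr1 (18.9 CPM, replicate 4). Gm4956, a transcribed pseudogene, was at 14.4, 12.8, 29.2, 14.2 and 11.997 CPM in wild type and 1.19, 2.396, 1.32 and 1.34 CPM in knockout samples (-3.42 ± 0.61, adjusted p = 0.00644), which did not overlap.

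The genotype effect differed between untreated and CCl4 samples for 7 genes named by rule, by the test of the difference itself in edgeR, and 3 of these were called in the untreated comparison. The untreated effect minus the CCl4 effect was 3.10 on the log2 scale for Asic5 (adjusted p = 0.0382), -2.21 for Ppl (adjusted p = 0.0431) and -4.48 for Gsta1 (adjusted p = 0.0204). Asic5 was higher in 4 of 4 untreated knockout samples than in any wild type sample, Ppl lower in 4 of 4 and Gsta1 lower in 4 of 4. Over 17 alternatives the difference was not called in 7 for Asic5, 9 for Ppl and 3 for Gsta1, with adjusted p up to 0.125, 0.0901 and 0.0598. The other 4 were not called between untreated genotypes. Their differences were -7.15 for the macrophage marker Ccr2 (adjusted p = 0.0382), -6.79 for Aurkb and -1.51 for E2f1 (both 0.0431), of the cell cycle list, and -6.46 for Tnfaip3 (0.0441), of the list of NF-kB targets. None of these 4 passed without the 2 libraries of over 30% mitochondrial counts, with adjusted p of 0.0768 to 0.142, and knockout CCl4 replicate 3, left out there, had the highest summed macrophage markers of the CCl4 samples (6566 CPM).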

How the results depend on the processing

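None of the 128 calls changed sign under any of 22 alternatives, and for the genes named the call was the same in 2119 gene and setting pairs, lost in 115 and gained in 27. The number of called genes depended on the tool. DESeq2 called 328 genes (155 higher, 173 lower; 84 copies, 241 unique; 143 also called with the same sign after CCl4), and limma voom with quality weights 214 (99 lower, 146 unique; 1031 after CCl4). The 9 untreated samples alone gave 99 called genes, 89 of them among the 128, and 51 of the 99 were unique. A window of 20 Mb gave 5 genes near the alleles. Without the libraries over 30% mitochondrial 555 genes were called after CCl4. With the replicate number as a block, which the labels say pairs nothing, 49 genes were called (22 higher, 27 lower; 27 copies, 20 unique), 43 of them among the 128.

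With 1 library left out, 89 to 128 genes were called, 54 to 76 higher and 35 to 52 lower, of which 46 to 80 were unique, 40 to 46 copies and 3 near the alleles. The same settings gave 1460 to 1729 calls after CCl4 and 68 to 88 shared with the same sign. The 46 unique calls were those without knockout replicate 4. Of the 128 genes, 78 were called with every library left out in turn: 39 of 47 copies and 36 of 78 unique genes.

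The share of calls that were higher was 62.5%, but 74.2% with unscaled totals, which moved the median of all genes to 0.14, 47.3% with DESeq2 and 44.9% with the block. With unscaled totals the summed sets of Rps3a1 and Rpl15-ps3 stood at 0.13 and -0.04 in place of -0.02 and -0.17. The planned settings for shared protein words were not run. Depth limits the 11 called genes with 1 to 3 counts in one group and also those with none, Erbb4 and Gm9825 among them. In addition, 49 called genes overlap another gene of the table.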

Other observations

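Some genes were on in part of 1 group and off in the rest of it, and were chosen after their values were seen. Eno1b, a gene that shares 81.8% of its transcript words with the glycolytic enzyme gene Eno1, was at 158, 125.99, 0.314, 157 and 0 CPM in wild type and at 0 in all 4 knockout samples, and it was not called (-13.57 ± 4.87, adjusted p = 0.36). Eno1 itself was at 303, 262, 515, 344 and 609.6 CPM in wild type and 472, 572, 554 and 519 CPM in knockout samples, lowest in wild type replicates 1, 2 and 4, those with the most Eno1b. Their sum was 461, 388, 515, 501 and 609.6 CPM in wild type and 472, 572, 554 and 519 CPM in knockout samples. Genes with 1 sample under 0.5 CPM and another over 20 CPM in the same group numbered 34 in wild type, 16 of them copies by either rule, and 17 in knockout samples, 13 of them copies.

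Moxd1, a monooxygenase gene on the list of male-biased liver genes, split the knockout samples. It was at 0.403, 0.167, 15.4, 0.368 and 42.7 CPM in wild type and 305, 290.1, 6.98 and 8.29 CPM in knockout samples (edgeR 3.68 ± 1.31, adjusted p = 0.311), so that knockout replicates 1 and 2 stood far above the other samples. Mki67, a marker of cycling cells, was at 0, 0, 2.07, 4.79 and 31.4 CPM in wild type and 0.263, 0.0856, 0.605 and 0.0838 CPM in knockout samples, and Cdk1 at 0.302, 1.08, 1.82, 3.02 and 28.8 and 0.439, 1.28, 0.220 and 0.419 CPM, wild type replicate 5 being the highest for both.

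Cyp2b9, a cytochrome P450 gene known for higher levels in female liver, had no count in any untreated knockout sample and 0.504, 3.0018, 0.126, 7.66 and 0.0723 CPM in wild type, and it was not called (-8.30 ± 2.15, adjusted p = 0.116). After CCl4 its level was 13.3 ± 9.54 CPM (SD, n = 5) in wild type and 29.9 ± 17.2 CPM (SD, n = 3) in knockout samples. The Y-linked pseudogene Gapdh-ps15 was at 1.71, 5.59, 3.33, 6.78 and 8.82 CPM in untreated wild type and at 0 in all 4 untreated knockout samples (adjusted p = 0.085), and near 0 after CCl4 in both genotypes, at 0.279 and 0.159 CPM on average.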
